A study of Mus musculus with 94 samples.

Results

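L1Md_A is a young subfamily of mouse LINE-1 (L1) retrotransposons. The table of L1 counts held 430083 annotated L1 copies. The 13367 copies described here are those whose name before the copy number is exactly L1Md_A, after 2 further copies of that name were set aside, and they make up 3.11% of all copies. Libraries of total RNA depleted of ribosomal RNA were sequenced from cortex (48 libraries) and hippocampus (46 libraries) of 48 male mice, and 46 of the mice had a library of each tissue. The age is given as 3 to 4 months, and the sources used here do not say whether at the start of treatment, which ran for months, or at dissection. The mice were Ts65Dn (TS), a Down syndrome model trisomic for segments of mouse chromosomes 16 and 17, and their wild-type (WT) littermates, born to B6EiC4Sn.BLiA-Ts(1716)65Dn/DnJ females and B6C3F1/OlaHsd hybrid males. They drank water with lamivudine at 3 mg/kg (t), an inhibitor of reverse transcriptase, or were not treated (nt). In cortex there were 9 libraries of WT-nt, 17 of WT-t, 9 of TS-nt and 13 of TS-t, and in hippocampus 8, 17, 8 and 13. The labels of all untreated mice begin with 20. In each tissue the WT-t labels begin with 18 (6 libraries), 19 (8) or 20 (3), and the TS-t labels with 18 (1), 19 (4) or 20 (8). What these digits stand for is not stated, and comparisons of treated with untreated mice differ in them too.

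A full-length L1 carries its own promoter and encodes an RNA-binding protein and a protein with endonuclease and reverse transcriptase activities, and it copies itself into new sites through an RNA intermediate. L1Md_A, L1Md_T and L1Md_Gf are the mouse subfamilies known to hold copies that can still move. Most copies of any L1 subfamily are truncated at the 5′ end, and RNA that covers a copy can come from the promoter of the element or from a gene that the copy lies in. Copies of a young subfamily are nearly identical, so a read often aligns to several of them. The counts per copy were made with Telescope, which reassigns such reads to the most likely copy, after an alignment that kept at most 5 positions per read. How far this moved counts between L1Md_A copies was not tested. In tissue, fewer cells that express a copy and less RNA per cell cannot be told apart. The table held L1 elements and no gene, so the tissue labels could not be compared with marker genes.

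L1Md_A took a small part of the L1 signal. Over all libraries the L1Md_A copies held 275331 counts in cortex, 1.65% of the L1 counts, and 174581 counts in hippocampus, 1.43%. Both are below the 3.11% of annotated copies that are L1Md_A. In counts not divided by the length of the copy, an L1Md_A copy had 20.6 counts on average in cortex and 13.1 in hippocampus, against 38.9 and 28.3 for an L1 copy of any subfamily. A cortex library held 186545 to 1165190 L1 counts and a hippocampus library 178454 to 403378. Of these, 2165 to 27703 fell on L1Md_A in cortex and 2301 to 6418 in hippocampus, so that single copies were counted at low depth. Of the 48 cortex libraries, 8 lay far from the others on the first principal component of the L1 counts (WT-nt replicate 1, WT-t replicates 1, 2, 3 and 16, TS-nt replicate 1, and TS-t replicates 1 and 2), and no hippocampus library did. The WT-nt library among them (replicate 1) held the highest L1Md_A share of all 94 libraries. WT-t replicate 1 in cortex had a count on 194 L1Md_A copies, the fewest of all libraries, and held the lowest share.

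The counts were spread over many copies. In cortex 9776 copies (73.1%) had at least 1 count in some library, and in hippocampus 8344 (62.4%). Of all L1 copies, 81.5% had a count in cortex and 63.0% in hippocampus. There were 7345 copies with a count in both tissues and 2592 with none in either. The 2431 copies counted in cortex alone had a median of 3 counts over all libraries, and the 999 counted in hippocampus alone a median of 2. A single L1Md_A copy never held a large part of the total. L1Md_A_dup7978 led in cortex with 8392 counts, 3.05% of the L1Md_A counts, and L1Md_A_dup12996 led in hippocampus with 4757 counts, 2.72%. In L1Md_T, the other large subfamily with movable copies, 1 copy held 31.8% of the cortex counts and 4.62% of those in hippocampus. Its cortex share, also computed after seeing the data, was 9.48% without the 8 libraries that stood apart, against 3.46% for L1Md_A_dup7978 in the same 40 libraries. The leading copy of L1Md_F2 held 2.32% of its cortex counts and 2.65% of its hippocampus counts, less than that of L1Md_A. The leading copy held more in L1Md_F (7.42% and 9.22%), L1Md_F3 (8.48% and 8.96%) and L1Md_Gf (21.9% and 30.5%). These have fewer copies (2105, 10149 and 801) than L1Md_A (13367), while L1Md_T (20184) and L1Md_F2 (44955) have more. The shares were not adjusted for the number of copies. The 10 L1Md_A copies with the most counts held 10.2% in cortex and 12.7% in hippocampus, and the 100 copies with the most counts held 27.7% and 33.2%. It took 510 copies to reach 50% of the cortex counts and 326 copies to reach 50% of the hippocampus counts. The leading copies were largely shared, with 7 of the 10 leading copies of each tissue and 81 of the 100 leading copies present in both lists.

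**Figure D1:**
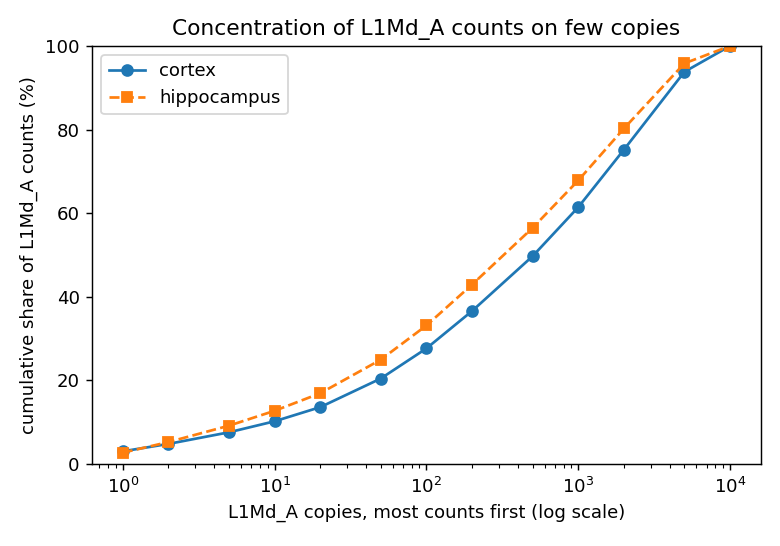
Cumulative share of L1Md_A counts (vertical axis, % of all L1Md_A counts of a tissue) against the number of copies taken in order of their counts (horizontal axis, log scale), for cortex (circles) and hippocampus (squares). The first copy holds 3.05% in cortex and 2.72% in hippocampus, and 1000 copies hold 61.4% and 67.8%.

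The copies with the highest mean level were counted in nearly every library, except L1Md_A_dup7777, which had no count in 12 of 48 cortex and 12 of 46 hippocampus libraries. Levels of single copies are given as CPM, counts per 1000000 L1 counts on copies that passed the filter after TMM scaling, and are not divided by length. In cortex L1Md_A_dup7978 ranged from 0 to 1681 CPM, and it was at 0 in WT-t replicate 1 alone. Its mean (± SD) was 979 ± 275 over 9 WT-nt libraries, 865 ± 354 in WT-t (n = 17), 1218 ± 197 in TS-nt (n = 9) and 1095 ± 289 in TS-t (n = 13). The ranges of the 4 groups overlapped. L1Md_A_dup12996 had a mean of 628 ± 133 in WT-nt, 532 ± 203 in WT-t, 584 ± 150 in TS-nt and 652 ± 228 in TS-t cortex. In hippocampus its mean was 647 ± 139 in WT-nt (n = 8), 615 ± 172 in WT-t (n = 17), 742 ± 240 in TS-nt (n = 8) and 796 ± 367 in TS-t (n = 13). The next copies, L1Md_A_dup3931, L1Md_A_dup2956 and L1Md_A_dup13840 in cortex and L1Md_A_dup2956, L1Md_A_dup13840 and L1Md_A_dup7777 in hippocampus, had lower group means, of 92.5 CPM to 434 CPM in hippocampus and 193 CPM to 399 CPM in cortex.

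The share of L1 counts on L1Md_A was first compared between the groups of each tissue. In cortex the share had a median of 1.58% in WT-nt (1.54% to 2.38%), 1.54% in WT-t (0.781% to 1.81%), 1.58% in TS-nt (1.35% to 1.85%) and 1.60% in TS-t (1.34% to 2.1%). In hippocampus it had a median of 1.48% in WT-nt (1.23% to 1.60%), 1.40% in WT-t (1.21% to 1.53%), 1.40% in TS-nt (1.23% to 1.59%) and 1.47% in TS-t (1.19% to 1.62%). The groups overlapped throughout, and in cortex the highest and the lowest share both belonged to libraries that stood apart.

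**Figure D2:**
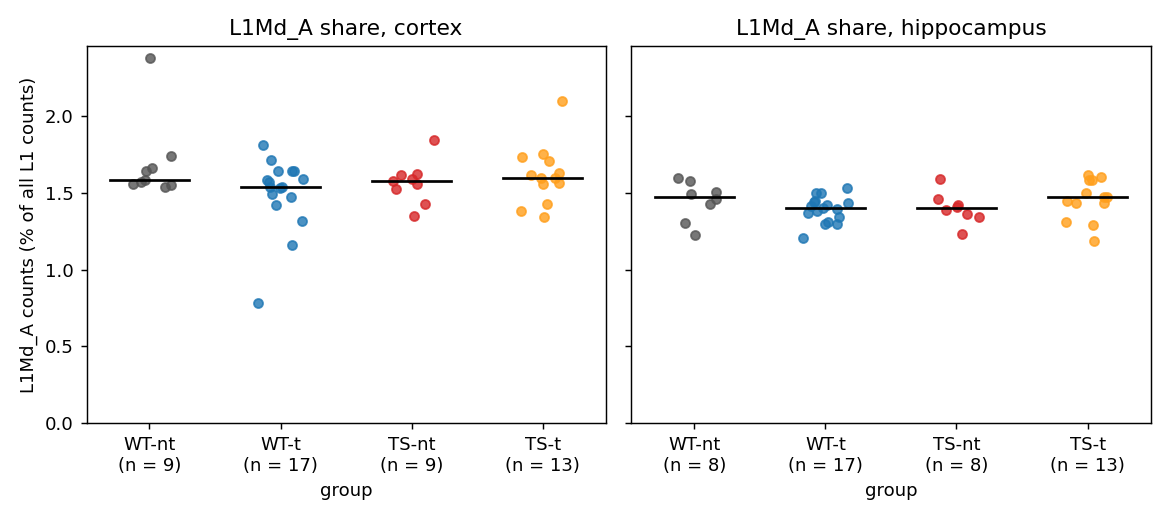
L1Md_A counts as a percentage of all L1 counts (vertical axis) in each library (points, spread sideways at random), by genotype and treatment (horizontal axis), for cortex (left) and hippocampus (right), with the median of each group as a line. The group medians run from 1.54% to 1.60% in cortex and from 1.40% to 1.48% in hippocampus, with 1 WT-nt cortex library at 2.38% and 1 WT-t cortex library at 0.781%.

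The summed level of L1Md_A was tested with edgeR's quasi-likelihood test on counts summed per subfamily, with Benjamini-Hochberg adjustment over the 134 subfamilies tested in cortex and the 133 in hippocampus, and called at an adjusted p below 0.1. L1Md_A was called in none of the 6 comparisons of either tissue. In cortex the genotype comparison TS-nt vs. WT-nt gave a log2 fold change of -0.20 ± 0.10 (SE; 95% interval -0.40 to 0.0035; adjusted p = 0.247), where 0.746% of subfamilies were called. The treatment comparison in wild-type cortex, WT-t vs. WT-nt, gave -0.20 ± 0.088 (-0.37 to -0.021; unadjusted p = 0.0291, adjusted p = 0.325), with 0.00% of subfamilies called. Both rest on WT-nt replicate 1: without it the log2 fold changes were -0.031 and -0.028, and without the 8 libraries that stood apart they were -0.014 and -0.019. In trisomic cortex, TS-t vs. TS-nt gave 0.12 ± 0.093 (-0.072 to 0.30; adjusted p = 0.678; 0.00% of subfamilies called). TS-t vs. WT-nt gave -0.084 ± 0.093 (-0.27 to 0.10; adjusted p = 0.904; 0.746% called), which became 0.085 without WT-nt replicate 1. TS-t vs. WT-t gave 0.11 ± 0.079 (-0.045 to 0.27; adjusted p = 0.918; 0.00% called).

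The difference between the treatment effects in TS and WT, tested as an interaction, was 0.31 ± 0.13 on the log2 scale in cortex (95% interval 0.055 to 0.57; unadjusted p = 0.0183; adjusted p = 0.233 in edgeR's test, with 0.00% of subfamilies called). It fell to 0.14 without WT-nt replicate 1 and to 0.032 without the 8 libraries that stood apart. DESeq2 on the same summed counts gave 0.36 with an adjusted p of 0.0995, just past the threshold. How many subfamilies DESeq2 called was not recorded, and the fits without libraries used edgeR alone. In edgeR's test 27 of 134 subfamilies had an unadjusted p below 0.05 for this interaction. In hippocampus the interaction was 0.11 ± 0.056 (0.0012 to 0.23; unadjusted p = 0.0478; adjusted p = 0.487; 0.00% called). The other 5 hippocampus comparisons lay closer to 0. TS-nt vs. WT-nt gave -0.054 ± 0.045 (-0.14 to 0.036; 0.00% called), TS-t vs. WT-nt gave -0.0099 ± 0.040 (-0.091 to 0.071; 1.50% called), TS-t vs. TS-nt gave 0.044 ± 0.040 (-0.037 to 0.13; 0.00% called), WT-t vs. WT-nt gave -0.069 ± 0.038 (-0.15 to 0.0081; 0.00% called) and TS-t vs. WT-t gave 0.059 ± 0.033 (-0.0072 to 0.13; 0.00% called). Their adjusted p-values in edgeR's test ran from 0.440 to 0.962.

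The number of L1Md_A copies with a count was compared after every library was thinned to 178454 L1 counts, the lowest total. At that depth the median was 988 copies in WT-nt, 1015 in WT-t, 963 in TS-nt and 958 in TS-t cortex, with ranges that overlapped (829 to 1337, 137 to 1177, 648 to 1570 and 762 to 1447). In hippocampus the median was 872 in WT-nt, 799 in WT-t, 760 in TS-nt and 895 in TS-t (582 to 942, 626 to 983, 517 to 1208 and 541 to 1167).

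Single copies were then tested. Few had enough counts: 125 L1Md_A copies in cortex (0.935% of them) and 88 in hippocampus (0.658%) passed the filter on low counts, against 1.26% and 0.985% of all L1 copies, and they held 30.3% and 31.3% of the L1Md_A counts. The spread between libraries was wide, with a median biological coefficient of variation of 0.845 over the L1Md_A copies tested in cortex and 0.772 in hippocampus (0.794 and 0.678 over all copies tested). No L1Md_A copy was called in any of the 12 comparisons by edgeR's quasi-likelihood test at an adjusted p below 0.1, and DESeq2 on the same copies called none either (0 to 9 copies a comparison at an unadjusted p below 0.05). Over all L1 copies tested, edgeR and DESeq2 called 0.00% in each of the 6 cortex comparisons. In hippocampus edgeR called 0.0708% for TS-nt vs. WT-nt, 0.0472% for TS-t vs. WT-nt and 0.00% for the other 4. DESeq2 called 0.0708% for TS-nt vs. WT-nt, 0.767% for TS-t vs. WT-nt and 0.71% for TS-t vs. WT-t. It called 0.0236% for TS-t vs. TS-nt and 0% for WT-t vs. WT-nt and the interaction. These shares leave out copies that DESeq2 gave no adjusted p, 1890 of 4238 for TS-t vs. WT-nt and 2547 for TS-t vs. WT-t.

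At an unadjusted p below 0.05, which is not a call, there were at most 4 L1Md_A copies in any comparison. In cortex these were 1 of 125 copies for TS-nt against WT-nt (1.51% of all copies tested), 1 for TS-t against WT-nt (1.75%), 0 for TS-t against TS-nt (0.905%), 4 for WT-t against WT-nt (1.59%), 4 for TS-t against WT-t (1.96%) and 2 for the interaction (1.11%). In hippocampus they were 2 of 88 copies for TS-nt against WT-nt (4.03%), 1 for TS-t against WT-nt (4.25%), 2 for TS-t against TS-nt (3.26%), 1 for WT-t against WT-nt (3.16%), 4 for TS-t against WT-t (3.94%) and 3 for the interaction (3.11%). The median log2 fold change over the tested L1Md_A copies was 0.071 in TS-nt vs. WT-nt cortex (0.069 over all copies tested) and -0.20 in hippocampus (-0.033). The WT-t vs. WT-nt comparison had -0.098 in cortex (-0.011 over all copies) and -0.099 in hippocampus (-0.0042), and TS-t vs. TS-nt had 0.089 (0.019) and 0.058 (0.044).

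L1Md_A_dup6813 was singled out because the study lists it among the elements chosen on these samples, so its tests are not independent evidence of its direction. On GRCm38 it lies at chr8:16041764-16047937 on the minus strand, 6174 bases long. It is within intron 37 (16037309 to 16058662) of Csmd1 (ENSMUSG00000060924.15, transcript ENSMUST00000082104.6), a large protein-coding gene on the same strand that encodes a membrane protein of the complement-regulating family expressed in brain, and it overlaps no exon. In cortex its level was 0 to 27.1 CPM in WT-nt with a median of 5.77, 0 to 115 CPM in WT-t with a median of 6.71, 0 to 79.8 CPM in TS-nt with a median of 30.6 and 0 to 164 CPM in TS-t with a median of 36.4. A count was present in 5 of 9 WT-nt, 10 of 17 WT-t, 8 of 9 TS-nt and 12 of 13 TS-t libraries. These counts were few, with a median per library of 1 in WT-nt, 1 in WT-t, 5 in TS-nt and 8 in TS-t. Over all libraries of a group they came to 15, 71, 58 and 144 in the same order. The groups overlapped, with TS libraries mostly above the WT-nt libraries. TS-t vs. WT-nt gave the smallest unadjusted p among the L1Md_A copies of cortex, with a log2 fold change of 2.59 ± 0.83 (p = 0.00214; adjusted p = 0.999 in edgeR's test over all elements). The exact two-sided permutation test of the mean CPM gave p = 0.0045 for TS-t vs. WT-nt (62.9 against 10.1 CPM) and p = 0.0163 for TS-nt vs. WT-nt (31.1 against 10.1 CPM). For TS-t vs. WT-t (62.9 against 22.9 CPM) the permutation test gave p = 0.0157, for TS-t vs. TS-nt the exact permutation p was 0.0918, and for WT-t vs. WT-nt it was 0.332.

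In hippocampus the group medians of L1Md_A_dup6813 did not follow the order seen in cortex, while the group means did. The median was 17.3 CPM in WT-nt (0 to 86.7), 7.41 CPM in WT-t (0 to 96.8), 16.9 CPM in TS-nt (0 to 136) and 19.6 CPM in TS-t (0 to 124). The mean was 23.9 CPM in WT-nt, 29.3 in WT-t, 33.2 in TS-nt and 39.3 in TS-t. A count was present in 5 of 8 WT-nt, 10 of 17 WT-t, 7 of 8 TS-nt and 11 of 13 TS-t libraries. The permutation p-values of the 5 pairs of groups, the 4 with untreated mice exact, ran from 0.370 to 0.753. Whether the difference between groups itself differed between the tissues was not tested.

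**Figure D3:**
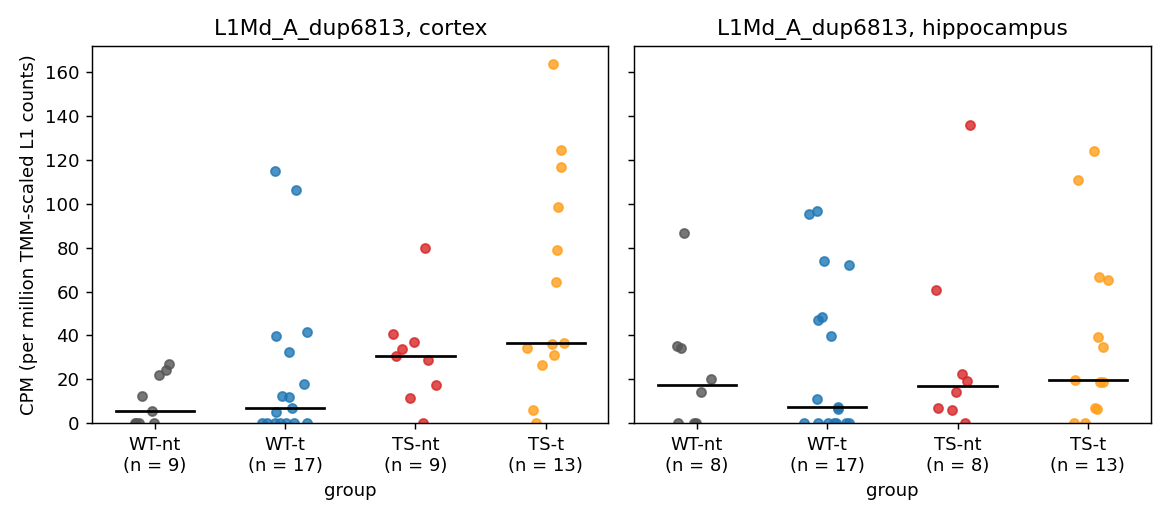
Level of L1Md_A_dup6813 (vertical axis, CPM, counts per 1000000 TMM-scaled L1 counts) in each library (points, spread sideways at random) by genotype and treatment (horizontal axis), for cortex (left) and hippocampus (right), with group medians as lines. In cortex the medians are 5.77 in WT-nt, 6.71 in WT-t, 30.6 in TS-nt and 36.4 in TS-t, and in hippocampus they lie between 7.41 and 19.6, with libraries at 0 in every group.

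In each other comparison the L1Md_A copy with the smallest unadjusted p is given as a description of the extreme of these data. The permutation p-values of these copies come from the same libraries that chose them, so they are not independent evidence. For TS-nt vs. WT-nt in cortex the copy was L1Md_A_dup12389. It had a count in 3 of 9 WT-nt and 8 of 9 TS-nt libraries, with a median of 0 CPM (0 to 63.5) against 55.4 CPM (0 to 114), and a log2 fold change of 2.11 ± 0.89 (p = 0.0182, adjusted p = 0.999 in edgeR's test). The exact permutation p was 0.0187. For TS-t vs. TS-nt in cortex it was L1Md_A_dup31, with a median of 0 CPM in TS-nt (0 to 87.1, 4 of 9 libraries with a count) and 51.7 CPM in TS-t (0 to 88.5, 12 of 13 with a count), a log2 fold change of 1.47 ± 0.75 (p = 0.0522, adjusted p = 1.00 in edgeR's test) and an exact permutation p of 0.0144. The TS-nt libraries with a count lay within the range of the TS-t libraries.

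L1Md_A_dup1285 had the smallest p in 3 cortex comparisons, all of which involve WT-t. Its level was 73.8 to 237 CPM in WT-nt with a median of 121, 0 to 186 CPM in WT-t with a median of 64.5, 33.5 to 281 CPM in TS-nt with a median of 81.5, and 55.7 to 276 CPM in TS-t with a median of 106. WT-t vs. WT-nt gave a log2 fold change of -0.998 ± 0.41 (adjusted p = 0.999 in edgeR's test), with an exact permutation p of 0.0015 for a difference of -63.3 CPM. TS-t vs. WT-t gave 1.04 ± 0.38, with a permutation p of 0.00295, and the interaction of treatment and genotype gave 1.35 ± 0.61. WT-t libraries lay lowest, yet every pair of groups overlapped. In hippocampus the same copy had a median of 106 CPM in WT-nt, 46.4 in WT-t, 70.0 in TS-nt and 65.4 in TS-t.

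In hippocampus L1Md_A_dup1328 had the smallest p for TS-nt vs. WT-nt. It had a median of 42.7 CPM in WT-nt (27.2 to 165) and 17.7 CPM in TS-nt (0 to 45.5), a log2 fold change of -1.69 ± 0.69 and an exact permutation p of 0.00699. The adjusted p in edgeR's test was 0.998, and the ranges overlapped. L1Md_A_dup13557 led in TS-t vs. TS-nt with a median of 118 CPM (37.4 to 378) against 69.2 CPM (20.4 to 115), a log2 fold change of 1.17 ± 0.41 and an exact permutation p of 0.0376. L1Md_A_dup2641 led in the interaction with 1.64 ± 0.59, with medians of 120 CPM in WT-nt, 71.0 in WT-t, 60.0 in TS-nt and 118 in TS-t. L1Md_A_dup13840 led where TS-t was compared with WT-nt and where it was compared with WT-t, with medians of 357 CPM in WT-nt, 335 in WT-t and 273 in TS-t. TS-t vs. WT-nt gave -0.51 ± 0.26 (p = 0.0494 and adjusted p = 0.998 in edgeR's test, exact permutation p = 0.0556). TS-t vs. WT-t gave -0.58 ± 0.22 (adjusted p = 0.950 in edgeR's test; permutation p = 0.0351). The untreated mice all had labels that begin with 20, whereas the treated mice had labels that begin with 18, 19 or 20. With only those treated mice kept whose labels begin with 20 (3 WT-t and 8 TS-t libraries), TS-t vs. WT-t turned to 0.25 ± 0.37 for L1Md_A_dup13840.

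Between tissues L1Md_A was lower in hippocampus. In the 46 mice with both tissues the L1Md_A share of L1 counts had a median of 1.59% in cortex (0.781% to 2.38%) and 1.43% in hippocampus (1.19% to 1.62%), and it was higher in cortex in 39 of 46 mice. The summed level differed by -0.20 ± 0.035 on the log2 scale (hippocampus over cortex, 95% interval -0.27 to -0.13; adjusted p = 1.40e-06 in edgeR's quasi-likelihood test), which is 0.871 times the cortex level. This fit, like that of single copies below, did not pair the libraries of a mouse. The difference was -0.15 without the mice that had a library far from the others, and -0.18 with the animal as a block. Differences between tissues were common among subfamilies, since 67.2% were called and 35.8% were called lower in hippocampus. The other L1Md subfamilies were also lower in hippocampus, L1Md_T by -0.64 ± 0.16, L1Md_Gf by -0.21 ± 0.066, L1Md_F by -0.18 ± 0.048, L1Md_F2 by -0.16 ± 0.028 and L1Md_F3 by -0.10 ± 0.050, with adjusted p-values up to 0.0606 in edgeR's test. In the 38 mice without a library far from the others, a comparison of these subfamilies added after seeing the data, L1Md_T differed by -0.20 ± 0.065 (adjusted p = 0.00608), close to the -0.15 ± 0.020 of L1Md_A in those mice, and L1Md_F3 was no longer called (-0.022 ± 0.024, adjusted p = 0.415). In cortex L1Md_T held a median of 2.51% of the L1 counts with a highest library at 18.6%, and in hippocampus a median of 2.35%.

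Of the 173 L1Md_A copies tested between tissues, 37 (21.4%) were called, 13 higher and 24 lower in hippocampus. Over all L1 copies tested 21.7% were called, 9.99% higher and 11.7% lower in hippocampus, so that the L1Md_A copies called were close to the background in number (7.51% higher and 13.9% lower). The log2 fold changes of the 13 copies called higher ran from 0.48 to 2.20 with a median of 1.06, and those of the 24 called lower from -0.63 to -4.27 with a median of -1.36. A change of at least 4 times was seen in 8 of the copies called lower (4.62% of the L1Md_A copies tested, 1.57% of all L1 copies tested) and in 1 of those called higher (0.578% and 1.07%). Whether L1Md_A differed from the other copies in this was not tested. Of the 37 copies, 32 were still called without the mice that had a library far from the others, and 25 when every copy with at least 10 counts was tested.

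**Figure D4:**
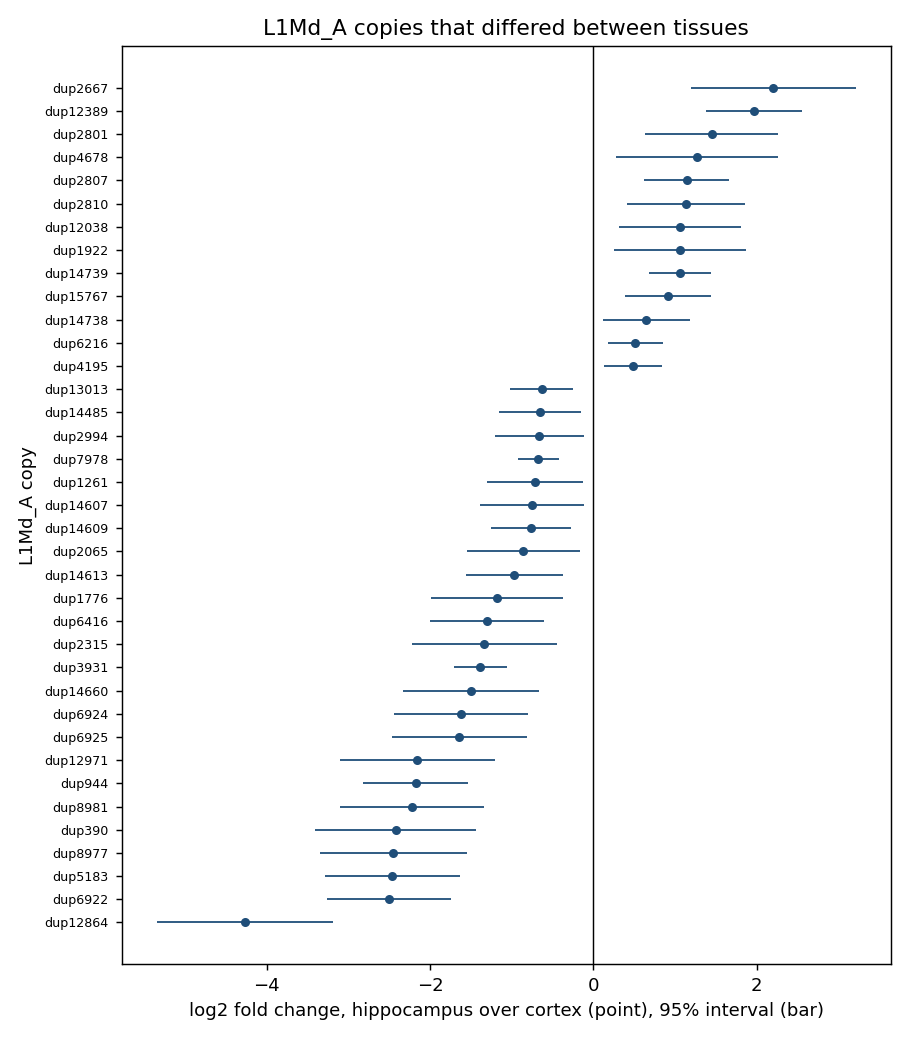
Log2 fold change, hippocampus over cortex (horizontal axis), with its 95% interval (bars) for the 37 L1Md_A copies called at an adjusted p below 0.1 (vertical axis, ordered by fold change). The 13 copies above 0 reach 2.20 and the 24 below 0 reach -4.27, and most lie within 2 of 0.

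For single copies, CPM medians and numbers of mice higher or lower rest on CPM scaled within each tissue. They do not share a scale between tissues, whereas the fitted fold changes do. L1Md_A_dup3931 was lower in hippocampus in 45 of 46 mice. Its level was 0 to 640 CPM in cortex with a median of 361 and 46.9 to 280 CPM in hippocampus with a median of 112, a log2 fold change of -1.38 ± 0.17 (adjusted p = 4.78e-13 in edgeR's test). The only cortex library at 0 was the WT-t library that also lacked L1Md_A_dup7978. L1Md_A_dup12864 was counted mostly in cortex. It had 296 counts over the cortex libraries, with a count in 39 of 48, and 13 counts over the hippocampus libraries, with a count in 8 of 46. No mouse had more in hippocampus, 38 had less and 8 had none in either tissue, and the fitted log2 fold change was -4.27 ± 0.55 (adjusted p = 1.41e-11 in edgeR's test). L1Md_A_dup6922 had a median of 55.0 CPM in cortex (0 to 215) and 14.3 CPM in hippocampus (0 to 118), was lower in hippocampus in 35 mice and higher in 4, and had a log2 fold change of -2.50 ± 0.39.

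The reverse held for L1Md_A_dup12389. Its level was 0 to 152 CPM in cortex with a median of 22.3 and 0 to 267 CPM in hippocampus with a median of 104, it was higher in hippocampus in 41 of 46 mice, and its log2 fold change was 1.97 ± 0.30 (adjusted p = 1.77e-08 in edgeR's test). L1Md_A_dup14739 had a median of 76.5 CPM in cortex (0 to 240) and 208 CPM in hippocampus (31.2 to 327) and was higher in hippocampus in 39 mice, with 1.06 ± 0.19. L1Md_A_dup2807 had a median of 39.5 CPM in cortex (0 to 125) and 93.0 CPM in hippocampus (0 to 249) and was higher in 35 mice, with 1.14 ± 0.26. The tissues overlapped in range for each of these copies, and most mice moved the same way.

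Some L1Md_A copies varied between the mice of a group alike in both tissues. For each copy with enough counts in both tissues, the cortex and hippocampus levels of the same mouse were correlated over 46 mice after the group means were taken off (Spearman, 100000 permutations of the mice, adjusted over 3722 L1 copies). Of 77 L1Md_A copies 9 were called (11.7%), all with a positive correlation, against 7.36% of all copies tested. The median correlation over the 77 copies was 0.13, and over all copies 0.11. The 9 copies were L1Md_A_dup7776, L1Md_A_dup7777, L1Md_A_dup5840, L1Md_A_dup16734 (rho = 0.603), L1Md_A_dup13840 (0.535), L1Md_A_dup15731 (0.484), L1Md_A_dup4542 (0.441), L1Md_A_dup16638 (0.414) and L1Md_A_dup2641 (0.406).

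L1Md_A_dup7776 was either high or low in a mouse, in both tissues alike. It had at least 10 counts in cortex and in hippocampus in 23 mice, with 11 to 50 counts in cortex and 12 to 55 in hippocampus. In the other 23 mice it had under 10 counts in both tissues, at most 7 in cortex and 5 in hippocampus, and 15 of them had no count in either. No mouse was high in 1 tissue and low in the other. Since the mice fell into separate clusters, no correlation over all of them is given. The permutation p over all 46 mice was 1e-05, the smallest that the permutations can give, and the adjusted p was 0.00062. Within the 23 high mice r was 0.17 (permutation p = 0.448) and rho 0.21 (permutation p = 0.324). The values within the high mice were not centred on the group, and the split used the same counts, which narrows their range.

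L1Md_A_dup7777, whose copy number follows that of L1Md_A_dup7776, was high in the same mice. The 23 mice with at least 10 counts of L1Md_A_dup7776 in both tissues were also the 23 with at least 10 counts of L1Md_A_dup7777 in both tissues, at 31 to 120 counts in cortex and 43 to 138 in hippocampus. Of the other mice, 20 had under 10 counts in both tissues and 3 differed between the tissues (44 counts in cortex and 0 in hippocampus, 15 and 4, and 1 and 11). The adjusted p of the correlation over 3722 copies was again 0.00062. Within the 23 high mice, again not centred on the group, r was 0.14 (permutation p = 0.509) and rho 0.18 (permutation p = 0.413).

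The high mice came from every group: 1 of 8 WT-nt, 10 of 17 WT-t, 5 of 8 TS-nt and 7 of 13 TS-t mice. They also came from each set of labels, 2 of 7 mice with labels that begin with 18, 8 of 12 with 19 and 13 of 27 with 20. The single high WT-nt mouse had 31 counts of L1Md_A_dup7776 in cortex and 28 in hippocampus. L1Md_A_dup7776 was also the copy with the smallest unadjusted p for WT-t vs. WT-nt in hippocampus. There it had a median of 0 CPM in WT-nt (0 to 187, 2 of 8 libraries with a count) and 154 CPM in WT-t (0 to 305, 12 of 17 with a count), a log2 fold change of 2.25 ± 1.06 (p = 0.0398, adjusted p = 1.00 in edgeR's test) and an exact permutation p of 0.024. In cortex it had a median of 0 CPM in WT-nt, 85.9 in WT-t, 73.4 in TS-nt and 63.2 in TS-t. What part the number of high mice in each group plays in these differences was not tested.

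**Figure D5:**
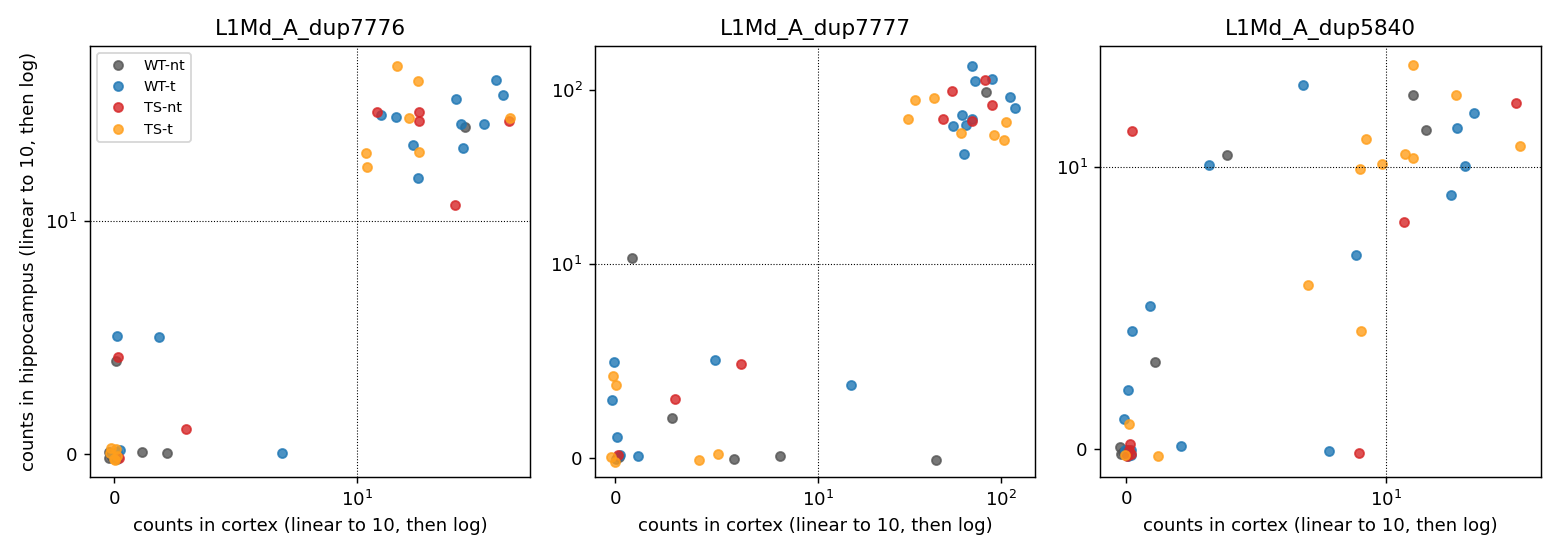
Counts in hippocampus (vertical axis) against counts in cortex (horizontal axis) of the same mouse for L1Md_A_dup7776 (left), L1Md_A_dup7777 (middle) and L1Md_A_dup5840 (right), coloured by genotype and treatment, with axes linear up to 10 counts and logarithmic above, a small random shift of each point, and dotted lines at 10 counts. For the first copy 23 mice are high in both tissues and 23 low in both, for the second 23, 20 and 3 that differ, and for the third 12, 26 and 8 that differ.

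L1Md_A_dup5840 also varied by mouse, with a less clear split. It had at least 10 counts in both tissues in 12 mice, under 10 in both in 26 and a different state in the tissues in 8. Pearson's r over the 46 mice was 0.76 and Spearman's rho was 0.74 (permutation p = 1e-05 in either case, adjusted p = 0.00062 for rho over 3722 copies), and without the 2 mice farthest from the median in cortex r was 0.74. Within the 12 high mice the correlation was near 0 (r = 0.0074 with permutation p = 0.982 and rho = 0.014 with permutation p = 0.975). Within the 26 low mice r was 0.44 (permutation p = 0.0193) and rho 0.42 (permutation p = 0.0343). These sets were split on the same counts and not centred on the group, so their values cannot be set beside those of all 46 mice. For the 7 mice with labels that begin with 18, 6 WT-t and 1 TS-t, r was 0.83. The TS-t mouse, centred on itself, added nothing to this value. Pearson's r was 0.72 for the 12 mice with 19 (permutation p = 0.0101) and 0.79 for the 27 mice with 20 (permutation p = 2e-05). Of its 12 high mice, 4 were also high for L1Md_A_dup7776 and 8 were not, and 19 mice were high for L1Md_A_dup7776 alone. Whether this overlap differs from chance was not tested. By group they were 2 of 8 WT-nt, 3 of 17 WT-t, 1 of 8 TS-nt and 6 of 13 TS-t mice.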

How the data were processed

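Reads from 150-base paired NovaSeq libraries (TruSeq Stranded Total RNA with Ribo-Zero Gold) were, per the labels and the study's methods, trimmed with Trimmomatic 0.38, aligned to GRCm38/mm10 with HISAT2 2.1.0 and counted per L1 copy with Telescope, whose version is not given in the sources used here. The deposited values are raw counts per L1 copy and library, which the authors did not normalize in this table. The study also states that RNA was pooled within conditions before quality control, and whether a library is 1 mouse was not stated further; p-values measure the spread between these libraries. Library totals ran from 178454 to 1165190 L1 counts.

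Counts were tested in R 4.3.3 with edgeR 4.0.16 (filterByExpr with a minimum count of 10 and a minimum total of 15, TMM, robust quasi-likelihood), with the 4 groups of a tissue in one model, per copy and per subfamily, and Benjamini-Hochberg adjustment over all copies or subfamilies tested. SE and 95% intervals come from the F statistic. The tissue comparison used the 46 mice with both tissues in 8 groups, as the mean difference over the 4 conditions, and did not pair the libraries of a mouse. Libraries far on the first principal component lay over 3 median absolute deviations from the median. Single copies were compared by two-sided permutation of mean CPM, exact unless both groups held 10 or more libraries (then 100000 resamples), unadjusted, for 19 pairs of copy and comparison. Correlations between tissues used log2 CPM with a prior count of 2, centred on the group except within the high or the low mice of a copy. DESeq2 1.42.0, other filters and scalings, left-out libraries, and the animal as a block were tried. Pairing of tissues comes from the animal in the labels: the profile of a mouse in 1 tissue correlated with its own in the other at a median r of 0.13 over 3722 copies (other mice -0.0040), and 29 of 46 mice correlated best with themselves. Scripts were tested on simulated data.

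The L1Md_A copies and all lists were chosen with earlier results of these data known. Copies named are L1Md_A_dup6813, the 5 highest mean CPM per tissue, the smallest unadjusted p per comparison and tissue (no copy was called), the 3 smallest p among called copies in each direction between tissues, and the 3 highest correlations over mice; the other copies called in that last test are named because their number is small. The position of L1Md_A_dup6813 comes from a supplementary table of the study and its gene from GENCODE M21. No sequence was used.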

Additional observations from a re-analysis of the deposited data

Results flagged for a closer look

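In the untreated groups of 8 or 9 libraries, the highest or the lowest library was compared with its nearest neighbour for the L1Md_A share, the number of copies with a count and the CPM of the copies named, in 84 group values. In 23 of them (27.4%) the gap exceeded Dixon's 95% critical value, where chance gives about 5%; values of low counts with many libraries at 0 are among them, and the groups share mice and libraries.

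The L1Md_A share was 2.38% in cortex WT-nt replicate 1, with the next library at 1.74%. The number of copies with a count at the shared depth was 1570 in cortex TS-nt replicate 4 (next 1009) and 1208 in hippocampus TS-nt replicate 4 (next 824), which are the same mouse. In cortex TS-nt replicate 4 L1Md_A_dup1285 was also far above the rest at 281 CPM (next 113), as was L1Md_A_dup2641 at 204 CPM (next 116). In the hippocampus of that mouse L1Md_A_dup12864 was at 5.05 CPM, which is 1 count, where the other 7 libraries were at 0. L1Md_A_dup6922 was at 15.2 CPM there, which is 3 counts (next 7.17 CPM).

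A single WT-nt mouse stood apart for L1Md_A_dup7776 and L1Md_A_dup7777 in both tissues. L1Md_A_dup7776 was at 210 CPM in its cortex library (replicate 3, next 10.99) and at 187 CPM in its hippocampus library (replicate 2, next 27.2). L1Md_A_dup7777 was at 563 CPM (next 162) and 647 CPM (next 78.8) in these libraries. The hippocampus library also held 86.7 CPM of L1Md_A_dup6813 (next 35.3).

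Cortex TS-nt replicate 7 stood apart for L1Md_A_dup7776 at 328 CPM (next 162), L1Md_A_dup2956 at 650 CPM (next 360) and L1Md_A_dup31 at 87.1 CPM (next 40.6). In the hippocampus of the same mouse L1Md_A_dup12389 was at 0 CPM, with the next library at 122. L1Md_A_dup12389 was at 63.5 CPM in cortex WT-nt replicate 6 (next 24.4), L1Md_A_dup1285 at 237 CPM in cortex WT-nt replicate 8 (next 143) and L1Md_A_dup3931 at 482 CPM in cortex WT-nt replicate 9 (next 352). In hippocampus, L1Md_A_dup1328 was at 165 CPM in WT-nt replicate 4 (next 91.7), L1Md_A_dup6922 at 47.6 CPM in WT-nt replicate 5 (next 20.7), L1Md_A_dup13840 at 544.5 CPM in TS-nt replicate 2 (next 344) and L1Md_A_dup6813 at 136 CPM in TS-nt replicate 3 (next 60.7).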

How the results depend on the processing

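The filter on low counts decided whether single L1Md_A copies were called by edgeR. On every copy with at least 10 counts in total it called, in the order TS-nt against WT-nt, TS-t against WT-nt, TS-t against TS-nt, WT-t against WT-nt, TS-t against WT-t and interaction, 803, 915, 385, 917, 646 and 517 of 4836 L1Md_A copies in cortex and 470, 422, 421, 458, 330 and 383 of 3214 in hippocampus. These are 16.6%, 18.9%, 7.96%, 19%, 13.4% and 10.7% of the L1Md_A copies tested in cortex (20.8%, 25%, 6.86%, 22.8%, 13.5% and 9.05% of all L1 copies tested) and 14.6%, 13.1%, 13.1%, 14.3%, 10.3% and 11.9% in hippocampus (14.5%, 13.5%, 13.4%, 12.7%, 10.6% and 12.1%). With no filter it called 974, 1272, 279, 1218, 1070 and 397 of 9776 in cortex, or 9.96%, 13%, 2.85%, 12.5%, 10.9% and 4.06% (13.5%, 18.4%, 2.98%, 16%, 13% and 4.07% of all). In hippocampus with no filter it called 0 (1458 at an unadjusted p below 0.05), 443, 450, 336, 602 and 305 of 8344, or 0%, 5.31%, 5.39%, 4.03%, 7.21% and 3.66% (0%, 6.69%, 6.65%, 4.89%, 9.27% and 4.59% of all). The copies called on the filter of 10 counts held a median of 14 to 21 counts over all libraries of a tissue. DESeq2 on the same copies, added after seeing the data, called 0 L1Md_A copies in all 12 comparisons (18 to 71 at an unadjusted p below 0.05). Of all L1 copies it called 0.00159% for TS-t against WT-nt in hippocampus and 0% in the other comparisons. The cause of the difference from edgeR was not tested. Between tissues 780 of 5987 copies (13%) were called on the filter of 10 counts, and 12.8% of all L1 copies tested. Of the 37 copies called, 25 were still called on that filter, 32 without the mice that had a library far from the others, 35 with DESeq2 size factors, 36 with all 94 libraries and 31 with the animal as a replicate block (36 in all), all in the same direction, and the block changed no call of the summed level (-0.18).

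For the summed level, DESeq2 put the cortex interaction past the threshold (0.36), and library size alone turned TS-t against WT-nt in hippocampus to 0.0072. Without single libraries the log2 fold changes ranged, in cortex, from -0.26 to -0.031 (TS-nt against WT-nt), -0.14 to 0.085 (TS-t against WT-nt), 0.060 to 0.15 (TS-t against TS-nt), -0.26 to -0.028 (WT-t against WT-nt), 0.057 to 0.15 (TS-t against WT-t) and 0.14 to 0.38 (interaction). In hippocampus they ranged from -0.075 to -0.030, -0.031 to 0.015, 0.021 to 0.064, -0.090 to -0.052, 0.044 to 0.079 and 0.090 to 0.13 in the same order, and none was called. Of the copies named, L1Md_A_dup13840 reversed in TS-t against WT-t in hippocampus (0.25) with the treated mice limited to labels that begin with 20. Under 5 alternatives 6 to 9 L1Md_A copies varied by mouse. Pearson correlation called 9 (7 of them among the 9 reported) and 345 of 3722 L1 copies. Without centring, the same 9 were called, with 318 L1 copies. Mice with labels that begin with 20 gave 6, all among the 9, with 112 L1 copies. Without libraries far on the first principal component there were 8 (7 among the 9), with 225 L1 copies. Copies with a mean of at least 5 counts in both tissues gave the same 9, with 284 of 3686.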
